A study of Mus musculus with 10 samples.

Results

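Gene deserts are long stretches of the genome without protein-coding genes, and they were examined here for chromatin that was open in embryonic mouse thymic epithelium. Accessible chromatin was mapped by ATAC-seq, which uses a transposase to cut and tag open DNA for sequencing. The merged peaks of the 4 embryonic libraries made 172440 regions, of which 65598 were called in all 4 lists and lay on chromosomes 1 to 19, X and Y. Of these, 5859 lay more than 100 kb from the span of every protein-coding gene and are called desert regions. The members were therefore chosen by embryonic peak calls and by gene distance, so that both are given as description, while the day 6 calls were not used in the choice.

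Sorted thymic epithelial cells (TEC) were taken from wild-type mice of strain C57BL/6. There were 2 libraries at each of 2 embryonic ages, day 15 (E15) and day 17 (E17), and 2 for each of mTEC4, mTEC1 and mTEC2, fractions whose age is given as day 6. The labels do not spell out how the fractions were gated, nor whether a library came from 1 animal or several. Peak names inside the deposited lists read aTEC for the libraries titled mTEC4, eTEC for mTEC1 and Hi for mTEC2, and hi for the embryonic libraries; the fractions are called here by their titles. Day 6 lists held 40858 to 101917 peaks and embryonic lists 86237 to 151646. The lists carry no read counts, so read depth is unknown, and a missing peak means only that none was called. Gene ends of TEC markers (Foxn1, Epcam, keratin and other genes, within 1 kb) carried a peak for 3 to 7 of 10 genes in day 6 libraries and for 8 to 10 of 10 in embryonic libraries. Foxn1, Trp63 and Pax9 had none in any day 6 list, while in embryonic lists Pax9 had none in 3 of 4 and Trp63 none in E17 replicate 1. Mesenchyme markers (Pdgfra, Pdgfrb, Col1a1 and Twist1) carried one for 0 to 2 of 4 genes at day 6 and for 4 of 4 in every embryonic library. Of 6 thymocyte markers, 0 to 4 had one at day 6 and 2 in each embryonic library. Those 2 were Cd4 and Bcl11b, with none there at Ptprc, Cd3e, Rag1 or Lck. Endothelium markers carried one for 0 to 2 of 4 genes at day 6 and for 2 to 3 of 4 in embryonic libraries. Of 3 myeloid markers, 0 to 1 had one at either age. Of 3 neural markers, 0 to 1 had one at day 6 and 1 to 2 in embryonic libraries. The part of other cell types in the results was not tested.

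The thymic epithelium forms from pharyngeal endoderm and, once the transcription factor Foxn1 acts, supports the development of T cells. Enhancers, DNA elements that raise transcription of a gene at a distance, can lie far from their target, and genes for developmental transcription factors are known to be flanked by deserts with many of them. Deserts also hold non-coding genes, among them microRNA (miRNA) host genes, whose short RNA products repress messenger RNAs that match their seed, bases 2 to 8 of the mature miRNA.

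Desert regions lay over promoters of several non-coding genes, among them the miRNA hosts Mir205hg, Mir100hg and Mir99ahg. Such members are shown because they were open in the embryo and their sequence has a defined start site. The 5 windows below run from 250 bases before to 50 bases after the start of a long non-coding RNA (lncRNA) gene, on the gene's strand in mm10, from RefSeq (GRCm38.p6). Capitals mark the bases inside the embryonic region. The genes were chosen after their values were seen.
Mir205hg, chr1:193510161-193510460, minus strand: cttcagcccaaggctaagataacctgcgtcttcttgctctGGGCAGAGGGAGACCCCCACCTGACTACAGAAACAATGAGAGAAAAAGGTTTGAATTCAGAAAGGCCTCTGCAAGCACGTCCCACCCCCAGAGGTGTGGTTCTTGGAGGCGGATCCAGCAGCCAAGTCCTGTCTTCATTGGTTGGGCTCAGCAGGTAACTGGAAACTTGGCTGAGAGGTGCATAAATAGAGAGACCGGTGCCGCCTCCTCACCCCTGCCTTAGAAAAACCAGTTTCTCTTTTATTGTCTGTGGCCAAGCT
Mir100hg, chr9:41474643-41474942, plus strand: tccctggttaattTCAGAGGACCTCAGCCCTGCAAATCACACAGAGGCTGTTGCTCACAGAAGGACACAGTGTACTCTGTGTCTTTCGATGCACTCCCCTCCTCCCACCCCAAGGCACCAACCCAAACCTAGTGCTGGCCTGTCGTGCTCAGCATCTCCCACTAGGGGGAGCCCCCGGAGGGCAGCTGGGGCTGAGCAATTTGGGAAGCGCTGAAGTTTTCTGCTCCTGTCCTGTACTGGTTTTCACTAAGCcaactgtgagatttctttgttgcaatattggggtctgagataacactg
Mir99ahg, chr16:77329078-77329377, plus strand: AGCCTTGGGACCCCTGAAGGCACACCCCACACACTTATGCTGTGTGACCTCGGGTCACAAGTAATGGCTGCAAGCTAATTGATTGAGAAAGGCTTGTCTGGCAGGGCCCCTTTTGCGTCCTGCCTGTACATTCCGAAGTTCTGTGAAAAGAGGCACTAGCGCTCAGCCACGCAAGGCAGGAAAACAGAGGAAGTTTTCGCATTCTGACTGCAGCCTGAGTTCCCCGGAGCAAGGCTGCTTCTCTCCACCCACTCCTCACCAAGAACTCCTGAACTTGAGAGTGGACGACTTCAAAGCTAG
Rubie, chr14:46575802-46576101, minus strand: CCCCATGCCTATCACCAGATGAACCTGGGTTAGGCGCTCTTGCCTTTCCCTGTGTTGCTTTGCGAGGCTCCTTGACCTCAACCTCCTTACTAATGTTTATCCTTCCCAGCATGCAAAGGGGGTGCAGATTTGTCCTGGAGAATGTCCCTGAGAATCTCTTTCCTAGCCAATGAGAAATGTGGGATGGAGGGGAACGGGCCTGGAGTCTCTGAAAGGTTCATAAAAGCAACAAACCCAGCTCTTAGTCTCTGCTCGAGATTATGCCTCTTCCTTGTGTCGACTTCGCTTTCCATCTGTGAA
Dubr, chr16:50732724-50733023, minus strand: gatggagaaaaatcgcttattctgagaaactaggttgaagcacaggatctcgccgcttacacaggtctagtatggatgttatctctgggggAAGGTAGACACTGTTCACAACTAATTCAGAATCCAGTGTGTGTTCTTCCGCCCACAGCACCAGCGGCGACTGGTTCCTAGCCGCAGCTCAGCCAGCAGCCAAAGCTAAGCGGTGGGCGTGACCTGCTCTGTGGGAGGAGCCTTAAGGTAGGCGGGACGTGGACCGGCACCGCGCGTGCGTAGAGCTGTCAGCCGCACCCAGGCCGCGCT

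The mature miRNAs of the same deserts and of the Klf14–Mkln1 desert fall into groups by seed, which is in capitals. The miR-100 and miR-99a sequences share the seed ACCCGUA, and miR-29a and miR-29b share AGCACCA.
miR-205-5p: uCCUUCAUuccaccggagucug
miR-100-5p: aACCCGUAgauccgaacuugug
miR-99a-5p: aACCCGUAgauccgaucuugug
let-7c-5p: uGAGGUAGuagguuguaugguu
miR-125b-5p: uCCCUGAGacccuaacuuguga
miR-29a-3p: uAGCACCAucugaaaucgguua
miR-29b-3p: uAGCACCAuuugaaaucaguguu

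The region over the start of Mir205hg, the host gene of miR-205, a miRNA abundant in stratified epithelia, was 337 bp wide and lay 140 kb from the nearest protein-coding gene, Camk1g. Its −log10 q, the strength the authors' peak caller gave to a peak within its own list, was 20.5 and 24.6 at E15 and 16.7 and 27.9 at E17. At day 6 it was 2.09 in mTEC4 replicate 2, 2.33 and 3.02 in the mTEC1 lists and 3.93 in mTEC2 replicate 1, with no peak in mTEC4 replicate 1 or mTEC2 replicate 2. Each q belongs to its own list, so these values show presence and rank within a list, not a change with age.

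The Mir205hg start belonged to a cluster of 10 desert regions spread over 85.3 kb. A cluster is 3 or more members, each within 25 kb of the next. All 10 were called in at least 1 day 6 list (background 77.0% of all regions called in all 4 embryonic lists), with 0 and 4 called in the mTEC4 lists, 5 and 9 in the mTEC1 lists and 7 and 3 in the mTEC2 lists, where the background was 22.2% and 35.4%, 28.6% and 49.9%, and 65.6% and 34.7%. A region 753 bp from the Mir205 hairpin had −log10 q of 13.0 and 11.2 at E15, 6.88 and 23.6 at E17, and 4.01, 1.99, 4.79 and 2.67 in the mTEC1 and mTEC2 lists. The strongest member of the cluster in the E17 replicate 2 list, with a −log10 q of 37.7, lay 66.0 kb upstream of the Mir205hg start. The cluster extended upstream, with 7 of its 10 members before the region over the start.

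**Figure D1:**
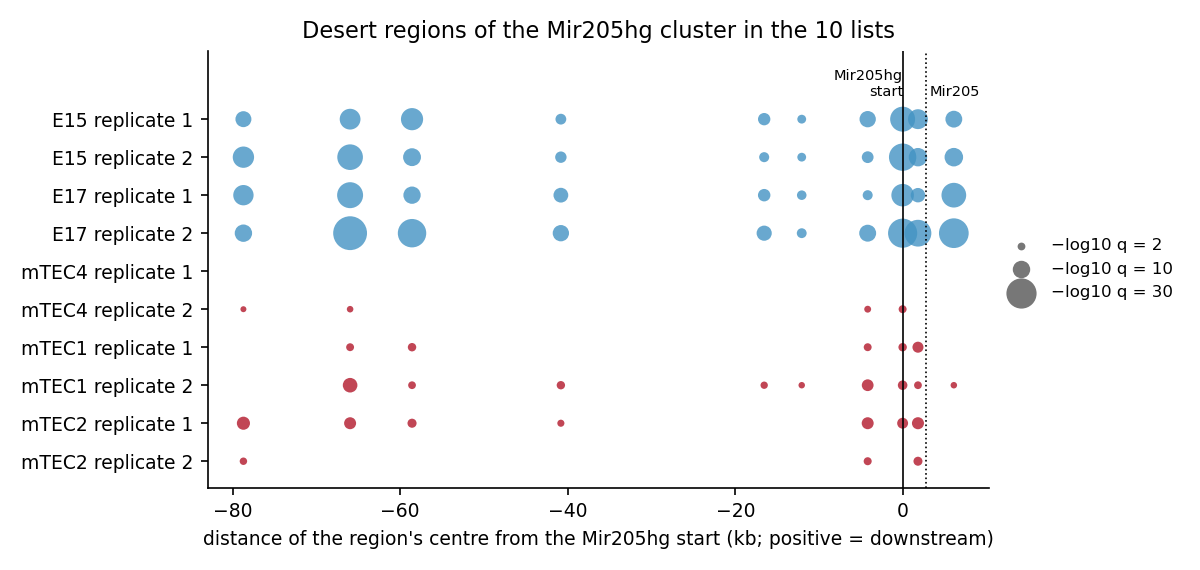
Each row is 1 of the 10 libraries and each dot a called peak at a desert region of the Mir205hg cluster, placed by the distance of the region's centre from the Mir205hg start in kb (positive is downstream). Dot area is proportional to −log10 q, embryonic lists are blue and day 6 lists red, and the dotted line marks Mir205. All 10 regions have a dot in the 4 embryonic rows, while the day 6 rows hold 0 to 9 dots.

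Members also lay along Mir100hg and Mir99ahg, lncRNA hosts of related miRNA clusters. The region over the Mir100hg start had −log10 q of 12.8 and 16.7 at E15 and 12.2 and 31.4 at E17. It was called in both mTEC1 lists (1.88 and 4.03) and both mTEC2 lists (6.69 and 4.81) and in neither mTEC4 list. The region over the Mir99ahg start was wider and weaker, with 1407 bp and −log10 q of 2.62 and 1.72 at E15, 4.33 and 3.91 at E17, and 1.19 in mTEC2 replicate 1, the only day 6 list that held it. A region inside Mir99ahg at chr16:77444154-77444369 reached a −log10 q of 64.1 in E17 replicate 2 and was called in 5 of 6 day 6 lists. The starts of the paralogous hosts thus differed, with 4 and 1 day 6 lists.

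The region over the start of Rubie, a lncRNA gene next to Bmp4, which encodes a bone morphogenetic protein active in the thymus primordium, was called in mTEC2 replicate 1 and no other day 6 list. That over Dubr was called in all 6 day 6 lists, with −log10 q of 2.75 to 8.43 at day 6 and 9.66 to 15.4 in embryonic lists.

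Promoters made up a small share of the members. Of the 5859, 110 overlapped, by any length, the promoter windows of 113 lncRNA genes, and 1139 (19.4%) lay inside a lncRNA gene. Of the 110, 88 (80.0%) were called in at least 1 day 6 list, against 3792 (66.0%) of the other members and a background of 77.0% of all regions called in all 4 embryonic lists. The promoter members were wider, with a median of 630 bp against 400 bp, and this was not separated from the calls. Of 104 miRNA hairpins more than 100 kb from a protein-coding gene, 23 had a member within 5 kb. Some hairpins shared the same nearest member, as did Mir379, Mir411, Mir299a, Mir299b and Mir380. The share for other positions in deserts is not given here. A member overlapped Mir802, which lies in the desert beside Runx1, and another overlapped Mir6368, beside Sox4.

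Short motifs were searched on both strands of the 113 windows, and none of the strings contains another. The windows include bases outside the members. The RUNX string TGTGGT was in 21.2% of them, against 20.01% of 9532 lncRNA windows and 17.0% of 27025 windows of all genes; of the printed windows it is in Mir205hg. The E-box CAGCTG was in 14.2%, against 18.0% and 16.2%, and is in the printed Mir100hg window. The AP-1 string TGANTCA was in 4.42%, against 9.48% and 7.91%, and the FOX string TGTTTAC in 2.65%, against 4.66% and 3.58%. The ETS string CCGGAAGT was in 0.00% (0 windows), against 1.62% and 3.93%, and the grainyhead-like string AACCGGTT in 1 window (0.885%), against 0.094% and 0.148%. Of the 113 windows, 25.7% held 10 or more CpG pairs, against 19.4% and 43.3%.

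Desert regions were called at day 6 less often than nearer intergenic regions in every day 6 library. Nearer intergenic regions are the 18782 called in all 4 embryonic lists that lay outside genes and 1 to 100 kb from one. In mTEC4, 7.34% and 14.3% of desert regions were called, against 14.3% and 27.7% of nearer intergenic regions, with a background over all 65598 regions of 22.2% and 35.4%. In mTEC1 the shares were 12.5% and 34.6% of desert regions against 21.3% and 45.6% of nearer ones (background 28.6% and 49.9%). In mTEC2 they were 54.4% and 21.6% against 63.3% and 29.0% (background 65.6% and 34.7%). The desert share was the lowest of the 3 in all 6 libraries, and the nearer intergenic share was 1.16 to 1.95 times as high.

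**Figure D2:**
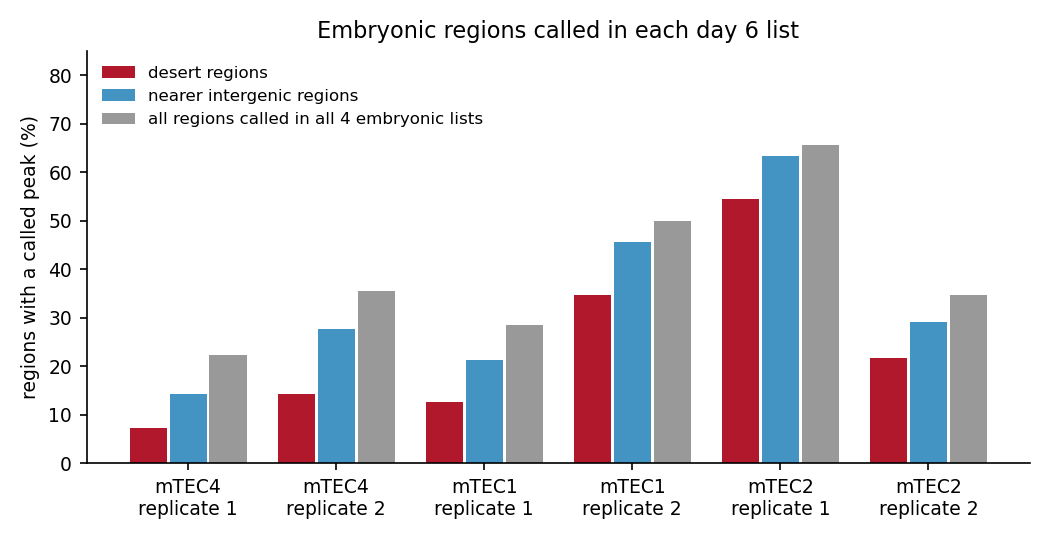
Percent of desert regions (red), nearer intergenic regions (blue) and all regions called in all 4 embryonic lists (grey) that held a called peak in each of the 6 day 6 lists. The red bar is the shortest in every library, from 7.34% in mTEC4 replicate 1 to 54.4% in mTEC2 replicate 1.

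The log2 ratio of the desert share to the nearer intergenic share averaged −0.62 ± 0.32 (SD, n = 6 day 6 libraries) and was negative in 6 of 6. An exact two-sided sign-flip permutation test gave p = 0.03125, the smallest that 6 libraries allow, and 0.0625 after Benjamini-Hochberg adjustment over 4 tests, so it did not pass 0.05. Desert regions were also weaker in the embryo, where the median over regions of the lowest within-list percentile was 40.1, against 48.8 for nearer ones, and slightly wider (medians of 403 and 352 bp). With the nearer regions weighted to the same mix of strength and width the mean ratio was −0.44 (exact permutation adjusted p = 0.0625), and with only peaks of −log10 q of at least 5 it was −0.16 (exact permutation adjusted p = 0.562).

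No day 6 list held 1979 of the desert regions (33.8%), against 24.1% of nearer intergenic regions and a background of 23.0%. All 6 day 6 lists held 202 (3.45%), against 6.19% and a background of 14.7%. A single day 6 list held another 1696 (28.9%), against 23.9%. The share with no day 6 call depended on the call rule: it was 53.3% without mTEC2 replicate 1, which held the most peaks at day 6, 79.2% with only peaks of −log10 q of at least 5 and 72.6% with peaks required to cover 50% of a region. At a −log10 q of at least 5, day 6 lists kept 4375 to 14533 peaks and embryonic lists 42064 to 70243. The shares of nearer or all regions under these settings are not given here, so these values are not particular to desert regions.

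**Figure D3:**
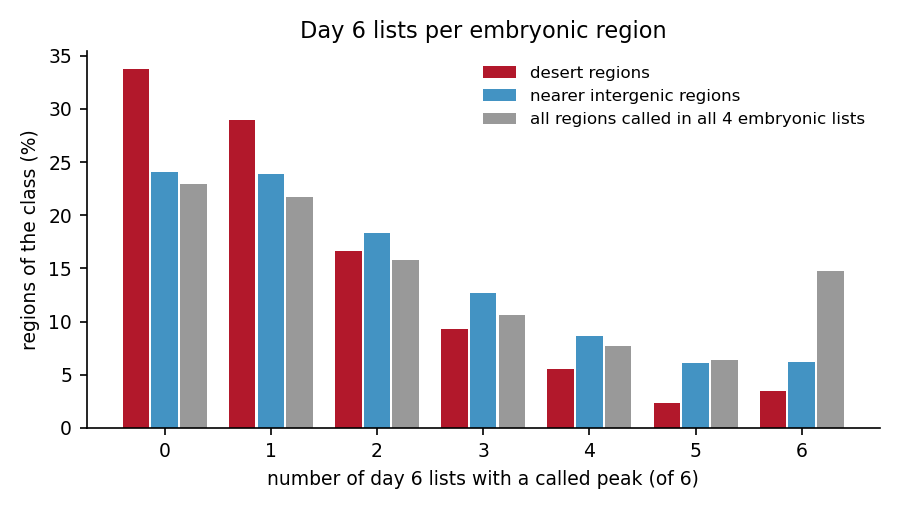
Percent of desert regions (red), nearer intergenic regions (blue) and all regions called in all 4 embryonic lists (grey) by the number of day 6 lists, of 6, that held a peak. Desert regions exceed the other classes at 0 and 1 list and fall below both from 3 to 6 lists.

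The rank of day 6 peaks over desert regions differed from that over nearer regions in both directions. The median within-list percentile of −log10 q was 73.9 and 66.6 over desert regions against 66.5 and 69.4 over nearer ones in mTEC4, 67.6 and 56.2 against 68.9 and 64.05 in mTEC1, and 58.05 and 50.9 against 69.9 and 55.3 in mTEC2. The difference averaged −3.45 ± 6.52 percentile points (SD, n = 6; exact two-sided sign-flip permutation p = 0.25, adjusted p = 0.333), and was above 0 in mTEC4 replicate 1 alone. The sign of this difference turned under 3 other settings given in the closing section.

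The day 6 fractions could not be separated by test. The log2 ratio of desert to nearer share was −0.96 and −0.95 in the mTEC4 lists, −0.76 and −0.40 in the mTEC1 lists and −0.22 and −0.43 in the mTEC2 lists. The mTEC4 values lay below all others, with a difference of −0.51 from the other 4 libraries, but this direction turned to 0.42 with only peaks of −log10 q of at least 5 and was −0.03 with peaks required to cover 50% of a region. The exact permutation p was 0.0667, the smallest that 15 arrangements allow (adjusted p = 0.2 over 3 tests). For mTEC2 the difference was 0.45 (exact permutation p = 0.2, adjusted p = 0.3; −0.28 with the stronger peaks) and for mTEC1 0.06 (exact permutation p = 0.8, adjusted p = 0.8; −0.15 with the stronger peaks).

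Both lists of a fraction held 329 desert regions (5.62%, background 19.7%) for mTEC4, 595 (10.2%, background 25.3%) for mTEC1 and 1068 (18.2%, background 31.5%) for mTEC2. Regions held by both lists of a fraction and no other day 6 list numbered 7 for mTEC4 (0.119%, background 0.166%), 17 for mTEC1 (0.2902%, background 0.279%) and 218 for mTEC2 (3.72%, background 2.65%). Those of each that ranked highest in the embryonic lists, by their lowest within-list percentile, were as follows. This ranking did not use day 6 strength. Their day 6 −log10 q can be read against the lowest value in each day 6 list, which was 1.00185 to 1.01241.

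For mTEC2, Fbxo8 and Hand2, which encodes a basic helix-loop-helix factor of heart and pharyngeal arch development, flanked a region with day 6 −log10 q of 2.03 and 1.82 and embryonic values of 20.3 to 26.4. The desert between Nphp4 and Ajap1 held another, with day 6 values of 1.23 and 1.82 and embryonic values of 20.6 to 35.8. For mTEC1 a region lay between Col5a2, which encodes a fibrillar collagen chain, and Wdr75, with day 6 values of 4.30 and 2.31 and embryonic values of 14.6 to 27.9. None of these regions belonged to a cluster.

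The second mTEC1 region lay between Cfap20dc and Fhit, with day 6 values of 1.78 and 2.51 and embryonic values of 11.0 to 19.4. For mTEC4 a region lay between Sfmbt2 and Prkcq, the protein kinase C theta gene of T cell signalling, with day 6 values of 1.80 and 1.84 and embryonic values of 15.0 to 41.8. The other lay between Ncam1 and Plet1, a surface protein gene of thymic epithelial progenitors, with day 6 values of 1.26 and 1.26 and embryonic values of 6.51 to 50.7. No flanking gene was shared between the 6 regions.

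Desert regions were unevenly spread. Of 1670 intervals over 200 kb between neighbouring protein-coding genes, 1089 (65.2%) held at least 1 member and 188 held 10 or more, 2728 members in all. The density was 7.67 members per Mb of interior, the sequence over 100 kb from a gene, against 22.6 regions per Mb between genes nearer than that and 38.6 per Mb inside genes. The median distance to a gene was 220 kb and the largest 2187 kb. Just inside the limit, at 100.014 to 100.07 kb, lay members of the deserts Ythdf3–Cypt12, Gap43–Zbtb20 and Ptprn2–Rapgef5, and just outside, at 99.972 to 99.994 kb, regions of Meis1–Spred2, Klf4–Actl7b and Ptgs2–Pdc. Their embryonic −log10 q values were alike, at 1.76 to 9.95 inside and 2.10 to 9.62 outside.

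The desert with the most members, 52 between Gm36448 and Dad1, holds the T cell receptor alpha locus, whose V segments are not annotated as protein-coding genes. Of the 52, 15 lay inside a V segment and 48 were called at day 6. Day 6 lists held 12 and 25 of the 52 in mTEC4 (23.1% and 48.1%, background 22.2% and 35.4%). They held 23 and 31 in mTEC1 (44.2% and 59.6%, background 28.6% and 49.9%). In mTEC2 they held 44 and 22 (84.6% and 42.3%, background 65.6% and 34.7%). The share in mTEC4 replicate 1 was thus near the background. In all, 77 members lay in antigen receptor loci, with 19 at the immunoglobulin kappa locus, 4 at the T cell receptor beta locus and 2 at the immunoglobulin heavy chain locus. Of the 77, 88.3% were called at day 6, against 65.9% of the other members and a background of 77.0%. They were narrower, with a median of 214 bp against 406 bp, and stronger in the embryo, with a median lowest percentile of 66.5 against 39.8. Without them the mean log2 ratio of desert to nearer share was −0.64.

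The other 9 of the 10 most populated deserts held 24 to 33 members each. Adgrl2–Adgrl4 and Slitrk5–Gpc5 also held 24, and the ties were broken in favour of the shortest desert. The called counts that follow can be read against the 66.2% of all members and 77.0% of all regions called in at least 1 day 6 list. Bcl11a, which encodes a zinc finger factor needed for B cell development and globin silencing, and Fancl flanked 33 members, 24 of them called at day 6. Thap1 and Zfp703 flanked 29, with 25 called at day 6. The Myc–Gsdmc desert, on the downstream side of the Myc oncogene, held 27 with 19 called at day 6. Agtr1b–Tbl1xr1 held 27 with 22 called, and Slc10a2–Efnb2 held 27 with 18 called.

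Zeb2, which encodes a repressor of epithelial genes, and Acvr2a flanked 26 members, with 20 called at day 6. Prl5a1–Sox4, beside a SRY-box factor gene expressed in many progenitors, held 24 members, of which 23 lay inside a lncRNA gene and 18 were called at day 6. Cd83–Jarid2 held 24 with 18 called. Cd83 is a surface protein gene that cortical TEC need to support CD4 T cells, and Jarid2 a Polycomb partner gene. Slc4a3–Epha4, beside an ephrin receptor gene, held 24 with 15 called. In the mTEC4 lists these 9 deserts had 0 to 2 and 2 to 5 members called. Those lists called 7.34% and 14.3% of all members and 22.2% and 35.4% of all regions. The T cell receptor alpha desert, with 23.1 to 84.6% of its members called, had the highest share of the 10 in each day 6 list. Over all regions the share was 22.2 to 65.6%.

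**Figure D4:**
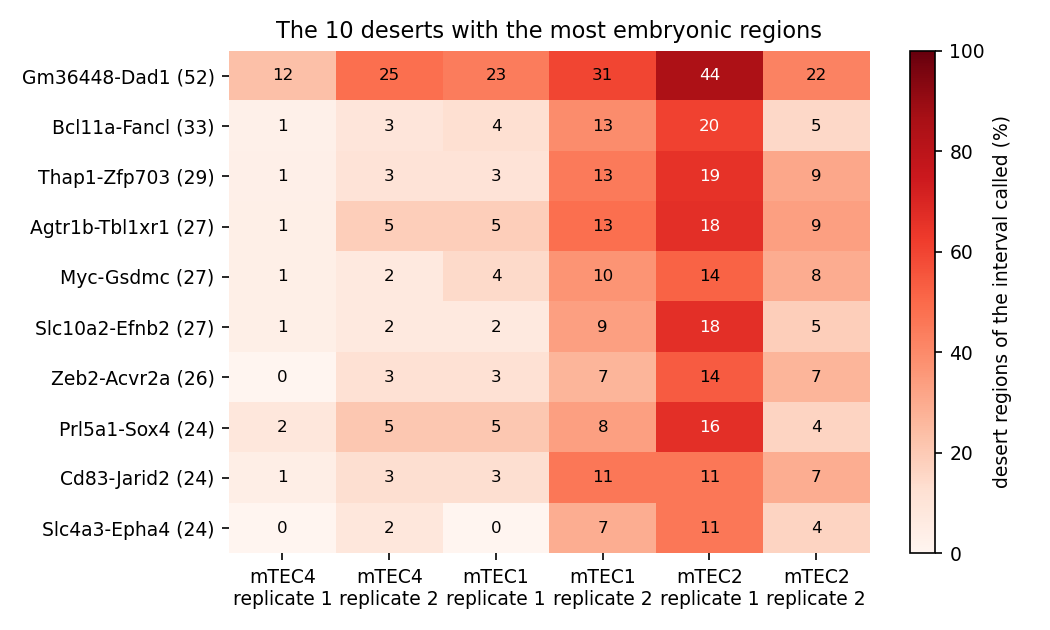
Number (text) and percent (shade) of the desert regions of each of the 10 most populated deserts that were called in each day 6 list. Rows are deserts by flanking genes, with the number of desert regions in brackets, and columns are day 6 libraries. The Gm36448–Dad1 row, which holds the T cell receptor alpha locus, has the highest percent in every column, from 12 of 52 in mTEC4 replicate 1 to 44 of 52 in mTEC2 replicate 1. These are 23.1% and 84.6%, against 22.2% and 65.6% of all regions called in all 4 embryonic lists.

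By gene list, the median density of members was highest beside genes with roles in the thymic epithelium or pharynx. Of 56 such genes, 13 lay on a desert border, and all 13 had a member in the desert. Their median density was 20.1 members per Mb of interior, against 5.82 per Mb over all 2778 flanking genes, 69.0% of which had a member. Single deserts elsewhere were denser, with 70.9 per Mb in Klf14–Mkln1. Pax1, a paired-box factor gene of the pharyngeal pouches, bordered 13 members in 468 kb of interior, of which 9 were called at day 6; the called counts of this and the following genes stand beside 66.2% of all members and 77.0% of all regions. Bmp4 bordered 14 (10 called), Isl1, a LIM homeobox gene of pharyngeal progenitors, 23 (15 called), Jag1, a Notch ligand gene, 17 (11 called), and Fgfr2, the receptor gene for Fgf7 and Fgf10, 10 (4 called). No desert-bordering gene on this list lacked a member.

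Of 106 developmental transcription factor genes on desert borders, 91 (85.8%) had a member, with a median of 10.8 per Mb. Myc bordered 42 members over both sides, Meis1 34, Bcl11a 33, Sox2 29, and Irx1 and Sox4 24 each, and 13 to 29 of each gene's members were called at day 6. Of 41 secreted signalling genes, 35 (85.4%) had one, with a median of 11.5 per Mb. Bmp2 bordered 16 members, and Cxcl12, a chemokine gene of the thymic stroma that recruits progenitors, 14, with 9 and 10 of them called at day 6. Neuronal adhesion genes bordered the largest deserts, with a median interior of 2249 kb; 73 of 77 (94.8%) had a member but the density was 4.55 per Mb. Cdh11 and Adgrl2 led with 38 members each.

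Thymocyte genes had members in 10 of 10 bordering deserts, with a median of 13.2 per Mb. Runx1, a factor gene of blood and T cells, bordered 19 members (12 called at day 6), Gata3, a factor gene of T cells and of the pharyngeal pouches, 18 (9 called), Bcl11b 16 (10 called) and Ptprc 13 (12 called). Mesenchymal genes had members for 9 of 13 (69.2%), with 9.15 per Mb and Osr1 leading with 14. Endothelial genes had them for 6 of 6, with 11.5 per Mb and 20 beside Cdh5, and myeloid genes for 3 of 4, with 13.8 per Mb. The lists differ in the size of their deserts, several genes are on more than 1 list or share a desert, and a flanking gene is not known to be the target of a region.

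**Figure D5:**
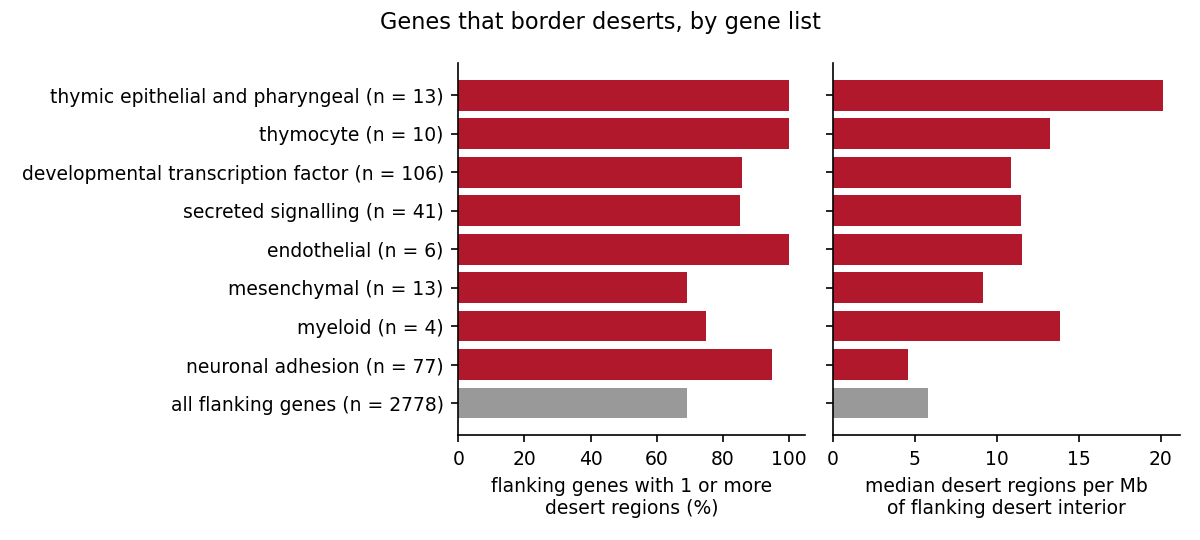
Left, percent of protein-coding genes on a desert border with at least 1 desert region in the desert; right, median number of desert regions per Mb of flanking desert interior. Rows are gene lists with the number of flanking genes in brackets, and the grey bar is all 2778 flanking genes. The thymic epithelial and pharyngeal list has the highest median density, 20.1 per Mb, and the neuronal adhesion list, at 4.55 per Mb, lies below all flanking genes.

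Of the 5859 members, 1549 (26.4%) fell into 390 clusters, with a median span of 27.3 kb, and 234 clusters had 3 members. The largest held 23 members within 38.2 kb at the sequenced start of chromosome 9, chr9:3000011-3038219, 297 kb from Alkbh8. All 23 were called in each mTEC4 and mTEC1 list and in mTEC2 replicate 1, and 21 in mTEC2 replicate 2. The day 6 lists called 22.2 to 65.6% of all 65598 regions. Of the 24 clusters with 8 or more members, the others had at most 3 members each in all 6 day 6 lists. No filter for repeated or unusually high-signal sequence was applied here, and the part of such sequence in these calls was not tested.

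The second cluster, 13 members over 146 kb, lay in the T cell receptor alpha locus, and all 13 were called at day 6. This and the following called counts stand beside 66.2% of all members and 77.0% of all regions called in at least 1 day 6 list. A cluster of 12 members over 104 kb lay between Prok2 and Rybp, a Polycomb component gene, with 8 called at day 6. Another 12 over 129 kb lay between Klf14 and Mkln1, with 10 called, and spanned the hairpins of Mir29a and Mir29b-1, which lay 1928 and 2291 bp from the nearest member. That member had −log10 q of 9.60 and 8.76 at E15, 4.83 and 15.2 at E17, 2.59 and 2.09 in mTEC1 and 5.72 and 3.22 in mTEC2, with no mTEC4 peak. An 11-member cluster between Rasgef1b and Vamp9, all inside lncRNA genes, had 3 members called at day 6. Another 11-member cluster, over 141 kb of the T cell receptor alpha locus, had 11 called.

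Clustered members were called more often than single ones in every day 6 list. The shares were 8.39% and 17.8% against 6.96% and 13.0% in mTEC4, 16.3% and 40.5% against 11.2% and 32.5% in mTEC1, and 56.9% and 25.4% against 53.5% and 20.2% in mTEC2. The log2 ratio averaged 0.33 ± 0.16 (SD, n = 6; exact two-sided sign-flip permutation p = 0.03125, adjusted p = 0.0625), positive in 6 of 6 libraries, and did not pass 0.05 after adjustment. Clustered and single members had like strength in the embryo (median lowest percentile 39.9 and 40.2) and median widths of 425 and 395 bp. Without the chromosome 9 cluster the mean log2 ratio was 0.24 (exact permutation adjusted p = 0.0625).

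Within the members, distance went with no steady difference. Members over 250 kb from a gene were called in 8.15% and 13.4% of cases in mTEC4, against 6.72% and 15.0% of members at 100 to 250 kb. In mTEC1 these shares were 13.2% and 32.7% against 12.0% and 36.1%, and in mTEC2 53.0% and 21.8% against 55.5% and 21.4%. The log2 ratio averaged 0.01 ± 0.17 (SD, n = 6; exact two-sided sign-flip permutation p = 0.938, adjusted p = 0.938), with 3 of 6 libraries positive. The direction depended on the setting, with a ratio of −0.17 at a minimum distance of 50 kb and of 0.24 at 200 kb, 0.62 with only peaks of −log10 q of at least 5 and 0.37 with 50% of the region covered (exact permutation adjusted p = 0.0417 for each).

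The 10 strongest members were called in all 10 lists and were 141 to 1085 bp wide. Members were not filtered for repeated or unusually high-signal sequence, and its part in their strength was not tested. The leading one, chr12:97061431-97061790 between Flrt2, a neuronal guidance receptor gene, and Galc, was 360 bp wide and 1140 kb from a gene. Its fold, the authors' enrichment over the caller's background, was 27.6 to 31.0 at day 6 and 25.8 to 28.2 in embryonic lists. The next, chr6:9889947-9890155 between Nxph1 and Ndufa4, had folds of 37.8 to 42.5 at day 6 and 35.9 to 39.8 in embryonic lists. A member at chr12:3109872-3110094 beside Rab10 had 35.6 to 43.7 at day 6 and 38.7 to 40.1 in embryonic lists. The ranges of these 3 members overlapped between the ages. At chr5:60042724-60043092 between Pcdh7 and G6pd2, folds were 29.5 to 33.7 at day 6 and 26.5 to 28.5 in embryonic lists, with no overlap. The member between Cntnap5b and Cdh20 had 18.5 to 35.8 at day 6 and 41.1 to 47.4 in embryonic lists, again with no overlap and in the other direction. Folds belong to their own list, the day 6 ranges pool the mTEC4, mTEC1 and mTEC2 lists, and the ages were not tested against each other. The share of all members or regions whose ranges do not overlap is not given here. The other 5 of the leading 10 were 3 members between Lrrc4c and Iftap, 1 beside Pex2 and 1 between Ptprd and Tyrp1, and their ranges at the 2 ages overlapped.

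In all, 39 members were at or above the 99th percentile of −log10 q in every embryonic list, and 38 of these (97.4%) were called in all 6 day 6 lists. Over all regions at that level the share was 98.2% (274 of 279). Their median width was 251 bp against 404 bp for the other members. They made up 0.666% of the members, and regions at that level made up 0.425% of all regions called in all 4 embryonic lists. Folds above 20 in all 10 lists occurred at 11 desert regions and at 33 of all 65598 regions.

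The strongest members with no day 6 call ranked lower in the embryonic lists. The leading one, 151 bp at chr19:15035684-15035834, lay between Tle4, a Groucho-type corepressor gene, and Psat1, with −log10 q of 16.3 and 20.7 at E15 and 16.7 and 22.3 at E17. The others lay between Pcmtd1 and Sntg1 (13.0 to 17.3), Sdk2 and Rpl38 (11.2 to 33.1), Ntm and Snx19 (10.74 to 36.9) and Kif2a and Zswim6 (12.7 to 16.3). Their lowest within-list percentiles were 85.3 to 91.9, and those of the 10 strongest members were 99.96 or higher.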

How the data were processed

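Each library has its own broad peak list from the authors, with no pooling of replicates. The tools, per the submitters' processing notes, were MACS2, Picard, Bowtie2 and cutadapt, with build mm10; versions and any shift of read ends are not given in the sources used here. Each deposited peak has a fold enrichment (a ratio to the caller's background) and a −log10 q value, which the authors' caller set within its own list. They were used only to rank, describe or filter peaks within a list. Replicates of a group are separate GEO samples, and p-values measure the spread between them, which may be technical.

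Embryonic peaks that overlapped or touched were merged, and a library with any peak over a region was taken to call it. Gene spans came from a RefSeq table (GRCm38.p6, 21776 protein-coding genes). Another 111 protein-coding genes, listed at positions below the first peak of their chromosome, were left out, and this changed no member. Shares were compared as log2 ratios with 0.5 added to called and uncalled regions. Tests were exact two-sided permutations over libraries with Benjamini-Hochberg adjustment. The sign-flip test was checked on simulated data with the same ratio in every library, whereas the ratios here differed between libraries. The fraction permutation was checked only for its smallest p on made-up values, and the adjustment was not checked. Alternatives varied the distance (50 and 200 kb), peak strength, list length, overlap, cluster link, far limit, comparison regions and libraries.

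The members, gene lists and tests were chosen with earlier results of these data known. The text names the 10 deserts and 5 clusters with the most members, the 10 strongest members, the strongest with calls in all, no or 1 fraction of day 6 lists, those at the distance limit, and up to 6 flanking genes per list; other loci named, including the miRNA loci, were chosen after their values were seen. Strongest in this list means by the lowest within-list percentile over the embryonic lists. Analyses used Python 3.11.15, pandas 2.3.3, numpy 2.4.6, scipy 1.17.1 and matplotlib 3.10.9.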

Additional observations from a re-analysis of the deposited data

Results flagged for a closer look

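Outside the chromosomes analysed, 121 regions on unplaced contigs were called in all 4 embryonic lists. They have no gene distance and entered no comparison. The 6 library measures tested for a library far from the rest gave none.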

How the results depend on the processing

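Under a minimum distance of 50 kb there were 9249 desert regions, 32.4% with no day 6 call, and the mean log2 ratios (each with an exact permutation adjusted p of 0.0417) were −0.55 for desert against nearer share, 0.27 for clustered against single and −0.17 for far against nearer. At 200 kb there were 3240 regions, 35.8% with no day 6 call, and the ratios were −0.61, 0.47 and 0.24 (exact permutation adjusted p = 0.0417 each). With peaks of −log10 q of at least 5 there were 1949 regions, 79.2% with no day 6 call. The strength difference was then 33.7 percentile points, the clustered ratio 1.67 and the far ratio 0.62 (exact permutation adjusted p = 0.0417 each), and the fraction differences were 0.42 for mTEC4, −0.15 for mTEC1 and −0.28 for mTEC2 (exact permutation adjusted p of 0.8 to 0.867). At equal list lengths there were 1608 regions, 25% with no day 6 call, and a strength difference of 0.17 points. With peaks required to cover 50% of a region, 72.6% had no day 6 call, the share, clustered and far ratios were −0.52, 0.26 and 0.37 (exact permutation adjusted p = 0.0417 each), strength differed by 2.29 points and mTEC2 by −0.0020. Against all other embryonic regions the share ratio was −0.99 and strength −12.6 points (exact permutation adjusted p = 0.0417 each). The passing p-values follow in part from the adjustment, in which 3 or 4 of the 4 tests at the smallest p pass and 2 do not. Shares with no day 6 call in this section are for desert regions only, with no background at the same setting.

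The far ratio was −0.013 with a limit of 500 kb, −0.035 without antigen receptor loci, −0.027 without the strongest regions and −0.058 without the chromosome 9 cluster, the last 3 chosen after seeing the data. Leaving out each library in turn gave far ratios of −0.042 to 0.046, mTEC1 differences of −0.12 to 0.24 and shares with no day 6 call of 33.96 to 53.3%; without an embryonic library there were 5903 to 7930 members. The desert share ratio stayed negative in every setting, from −0.99 to −0.16, and the clustered ratio positive, from 0.15 to 1.67. With 5 day 6 libraries the smallest p is 0.0625. Read depth is unknown, so its effect on these counts was not tested.

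With the replicate number as a block (replicate block), the fraction differences of −0.51, 0.06 and 0.45 were the same for mTEC4, mTEC1 and mTEC2, with exact permutation p of 0.111, 0.778 and 0.333; 9 arrangements allow no smaller p than 0.111. The calls of replicate 1 minus replicate 2 correlated by −0.11 to 0.05 between fractions over 65598 regions, and the labels do not say that numbers mark a shared animal or day.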

Other observations

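Desert regions were rare on the sex chromosomes. Chromosome X held 115 members, or 2.05 per Mb of desert interior, and chromosome Y 29, or 0.576 per Mb, against 6.74 to 12.8 per Mb on the autosomes. All 29 members of chromosome Y were called in at least 1 day 6 list, against 66.1% on chromosome X and 60.6 to 70.03% on the autosomes. The libraries' sex is not given in the labels.

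Among 214 deserts with an interior over 1 Mb, the median density was 4.33 members per Mb, with quartiles of 2.41 and 7.47, and 9 held no member. By distance, the share of members called in all 6 day 6 lists was 2.91% at 100 to 250 kb, 4.14% at 250 to 500 kb, 3.35% at 500 to 1000 kb and 6.61% beyond 1000 kb, over 3331, 1644, 657 and 227 members.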
